A study of Mus musculus with 12 samples.

Results

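The genes described here encode the enzymes that carry glucose carbon to pyruvate, on to lactate or into mitochondria, and around the tricarboxylic acid (TCA) cycle. The list names 44 genes, running from the glucose transporter Slc2a1 to the malate dehydrogenases. Their place in these pathways, with no threshold on measured values, sets the list. On the array 39 of them had a probe set that names a single gene, of 12393 such genes in all. No such probe set was matched to Gpi1, Eno1, Pdhx, Pdp1 or Mpc2. A filter on low intensity kept 38 of the 39 and 8675 genes in all. The member below the filter was Aldoc, an aldolase isoform best known from brain, at 12.2 to 54.7 intensity units over the 12 arrays.

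Glycolysis splits glucose in the cytosol, and its flux is set largely at the hexokinase and phosphofructokinase steps. Pyruvate then goes to lactate, enters mitochondria through a carrier, and is turned into acetyl-CoA by the pyruvate dehydrogenase complex or into oxaloacetate by pyruvate carboxylase. In fat cells the carboxylase and citrate synthase together supply citrate, which is exported to the cytosol for fatty acid synthesis, and pyruvate also feeds the glycerol backbone of triglyceride. PPARγ, a nuclear receptor, directs the differentiation of fat cells.

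All cells were mouse embryonic fibroblasts (MEFs) knocked out for their own PPARγ, into which a PPARγ form had been introduced, and all were kept in DMEM with 10% fetal bovine serum and differentiated for 6 days. The S273A cells carried PPARγ in which alanine takes the place of a serine that can be phosphorylated. Their titles read mutant, and the substitution is named in the series text. The WT + rosiglitazone cells carried wild-type PPARγ and received 1 µM of the thiazolidinedione rosiglitazone, a full PPARγ agonist, for 24 h. The WT + MRL24 cells carried the same form and received 1 µM MRL24, another PPARγ ligand, for 24 h. The WT cells carried wild-type PPARγ with no ligand, and the labels do not say whether they received vehicle. Each of the 4 groups had 3 arrays, and the number of arrays limits the precision. With 3 arrays against 3, the smallest p of an exact test is 0.1. Nothing in the labels says that arrays of 1 group were separate cultures, so the p-values reflect the array-to-array spread alone, and that spread may be technical. As far as the labels say, each PPARγ form was carried by 1 set of cells, so the substitution and any other difference between the cell populations cannot be told apart. In bulk RNA, fewer cells of a type and less RNA per cell cannot be told apart either.

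Values are intensities on a linear scale as the authors deposited them, with array medians between 296.8 and 314.9 units. WT replicate 2 stood apart from the other arrays, at -16.07 on the first principal component against -6.05 to 7.92 on the others. The residual SD of the members was 0.0995 on that array, against 0.0356 to 0.0644 elsewhere. It was the lowest of the 12 arrays for 17 of the 38 tested members, while 19% of all genes were lowest there. It was also the lowest array for each of the 7 members above 10000 units (Slc2a1, Aldoa, Tpi1, Pgk1, Pgam1, Pkm and Ldha). These 7 averaged from 14045 (Slc2a1) to 25141 (Pgk1) units, and array maxima lay between 31882 and 33624. Changes in these bright probe sets may be understated, which was not tested. The log2 ratio of the 3′ over the 5′ control probe set of beta-actin was 0.20 on WT replicate 2 and 0.04 to 0.16 on the others. For GAPDH the same ratio was -0.20 on that array, within the -0.24 to -0.16 of the others. Several results that rest on that array are also given without it. The control genes Actb, Hprt and Tbp passed the test in none of the 4 comparisons, with log2 changes between -0.18 and 0.25.

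Cell type markers moved with the groups. The 10 adipocyte markers on the array summed to 14341 to 15392 units in S273A cells, 32619 to 33117 in WT + rosiglitazone cells, 20585 to 20828 in WT + MRL24 cells and 13243 to 15186 in WT cells. Without Fabp4, the fat cell fatty acid binding protein, the sums were 5095 to 5291 units in S273A cells, 7668 to 7880 with rosiglitazone, 5284 to 5448 with MRL24 and 4406 to 4817 in WT cells. Adipoq and Cidec were below the intensity filter. All 10 fibroblast markers passed the filter and summed to 122389 to 129224 units in S273A cells, 128780 to 134872 with rosiglitazone, 134966 to 140369 with MRL24 and 126096 to 137488 in WT cells. Against WT, 6 of these 10 were called lower in S273A cells, 2 with rosiglitazone and 1 with MRL24. Over all genes 5.48%, 4.58% and 2.47% were called lower. Of the 8 adipocyte markers tested, 1, 4 and 3 were called higher in the same order, beside 2.31%, 3.94% and 3.39% of all genes. Between rosiglitazone and MRL24, 2 fibroblast markers were called lower and 3 adipocyte markers higher, beside 1.16% and 1.5% of all genes. The 8 macrophage markers summed to 3917 to 4112 units in S273A cells and 3244 to 3739 in WT cells. Of these Cd68 was called higher in S273A cells, and the defining Lyz2, Ptprc and Itgam were below the filter, as were 7 of 10 skeletal muscle markers. The part that cell composition plays in the results that follow was not tested.

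In S273A cells most enzymes of these pathways differed little from WT cells, and 6 passed the test. Pyruvate carboxylase (Pcx), enolase 2 (Eno2), the isocitrate dehydrogenase subunit Idh3b and citrate synthase (Cs) were called higher, and hexokinase 2 (Hk2) and platelet-type phosphofructokinase (Pfkp) lower. Log2 changes are the first group named minus the second. A call is an adjusted p under 0.05 in limma, with Benjamini-Hochberg adjustment over all 8675 genes. The 6 of 38 members are 15.8%, where 7.78% of all genes were called (2.31% higher, 5.48% lower) and 9.84% of genes above the median intensity. All S273A arrays stood apart from all WT arrays for 7 members above WT and 4 below it, beside 23% of all genes in either direction. The count fell to 2 to 4 when any 1 of the 12 arrays was left out, and only the Hk2 and Pcx calls held under each of the 23 alternatives run on all genes.

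With rosiglitazone 4 members were called higher and 1 lower than in WT cells. Pcx, Cs, the isocitrate dehydrogenase subunit Idh3a and aconitase 1 (Aco1) were the higher ones and Hk2 the lower. These 5 of 38 are 13.2%, beside 8.52% of all genes (3.94% higher, 4.58% lower) and 10.6% of the brighter genes. The arrays did not overlap for 13 members above WT and 2 below it, beside 26.2% of all genes. Leaving out single arrays gave 4 to 6.

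With MRL24 2 members passed the test. Pcx was called higher and Mpc1, a subunit of the mitochondrial pyruvate carrier, lower in WT + MRL24 than in WT cells. These 2 of 38 are 5.26%, against 5.86% of all genes (3.39% higher, 2.47% lower), so the share was near the background. The arrays did not overlap for 11 members above WT and 3 below it, beside 29.7% of all genes. The count was 0 without any 1 MRL24 array or without WT replicate 2, 4 without WT replicate 1 and 5 without WT replicate 3. Scaling the arrays to a common median gave 227 higher and 443 lower genes in this comparison, against 294 and 214 as deposited.

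The ligands could be set against each other at the same dose and time, and their difference does not include the WT arrays, although these enter the estimate of the spread. Idh3a, Pcx and Aco1 were called higher and Hk2 lower in WT + rosiglitazone than in WT + MRL24 cells. These 4 of 38 are 10.5%, against 2.66% of all genes (1.5% higher, 1.16% lower) and 3.47% of the brighter genes. The arrays did not overlap for 10 members above MRL24 and 5 below it, beside 26% of all genes. The count was 2 without MRL24 replicate 2, 3 to 5 without any other single array, and 6 with the 6 arrays of both ligands alone or with array weights. Over all genes it was 231, and 494 without WT replicate 2. With arrays scaled to a common median, 151 of all genes were higher and 72 lower, against 130 and 101 as deposited.

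The level of each gene was read from its brightest probe set, and 20 members had 31 further probe sets above the same intensity. Fitted singly, 1 of the 31 was called in S273A cells (Cs, higher), beside 8.52% of 13716 probe sets. With rosiglitazone 1 was called (Cs, higher), beside 9.95%. With MRL24 Cs, Hk1 and Pfkp were called higher and Mdh1 lower, beside 9.27%, and the Mdh1 call was lost without WT replicate 2 (adjusted p = 0.13). Between rosiglitazone and MRL24 1 was called (another Cs probe set, higher), beside 2.49%. Without WT replicate 2, Idh3b was also called higher in S273A cells (adjusted p = 0.0311). A Slc2a1 probe set was then called lower with rosiglitazone than with MRL24 (log2 difference -0.12, adjusted p = 0.0276).

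**Figure D1:**
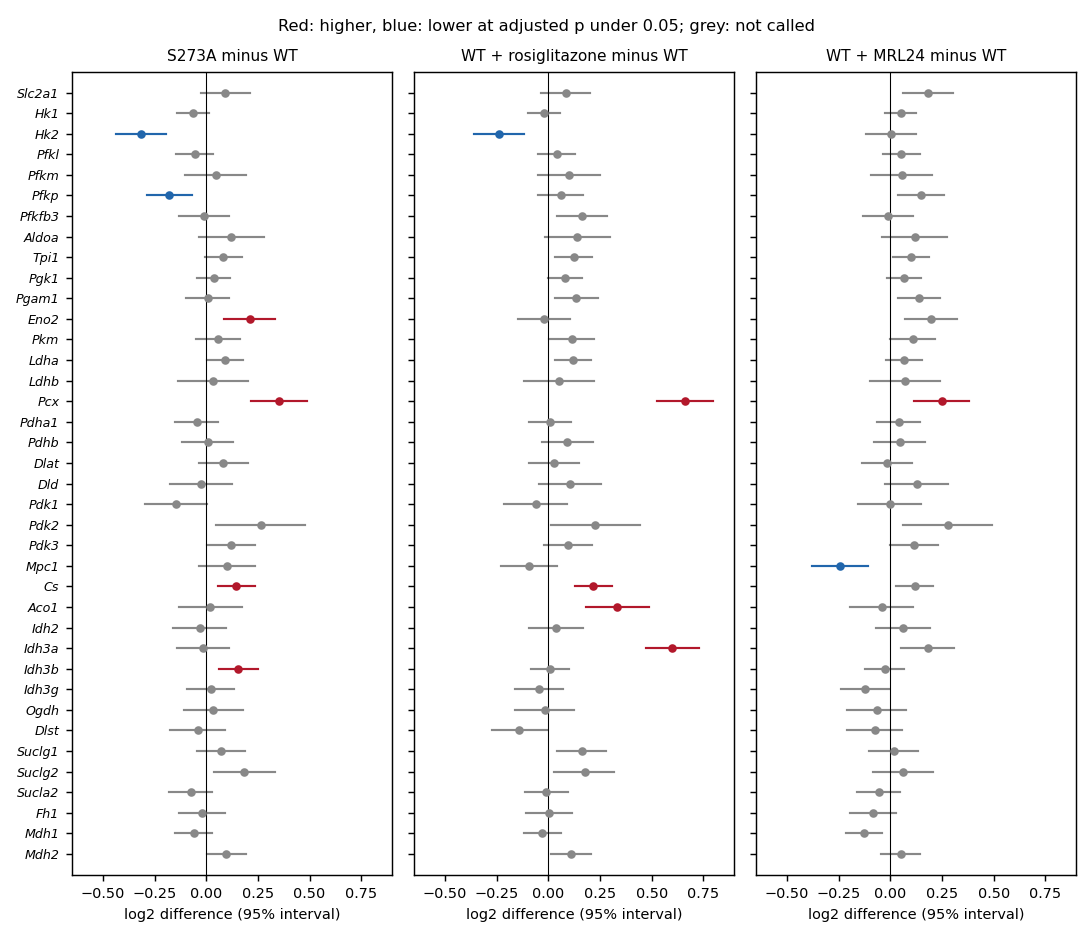
Log2 difference from WT (x axis, on log2(intensity + 16)) for the 38 tested members in pathway order from glucose uptake at the top to malate dehydrogenase at the bottom, in S273A, WT + rosiglitazone and WT + MRL24 cells, with 95% intervals from the limma fit. Coloured points are the 6, 5 and 2 members called, and Pcx is to the right of 0 in all 3 panels.

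Hk2 encodes the hexokinase that insulin-responsive tissues use to trap glucose as glucose 6-phosphate. It read 4222, 4289 and 3834 units on the 3 S273A arrays. With rosiglitazone the arrays read 4441, 4350.3 and 4233 units, and with MRL24 5040, 5185 and 5189. WT arrays read 5595, 4731 and 5081. All S273A and all rosiglitazone arrays lay below every MRL24 and every WT array. Hk2 fell in S273A cells to 0.803 times the WT level (log2 change -0.32 ± 0.06 SE, adjusted p = 0.00264), and it held that call under each alternative. With rosiglitazone it was 0.848 times the WT level (log2 change -0.24 ± 0.06 SE, adjusted p = 0.0151), and the call was lost without rosiglitazone replicate 2 (adjusted p = 0.0536), without rosiglitazone replicate 3 (0.0618) or without WT replicate 1 (0.0547). It was also lost with the 6 rosiglitazone and WT arrays alone (adjusted p = 0.0579). Between MRL24 and WT the difference was 0.004 (95% interval -0.12 to 0.12). Rosiglitazone cells were also below MRL24 cells (log2 change -0.24 ± 0.06 SE, adjusted p = 0.0309), a call lost without any 1 of the 6 ligand arrays (adjusted p 0.0601 to 0.141).

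The 2 other members at glucose entry passed no test by their brightest probe sets. Slc2a1, the glucose transporter GLUT1 found in most cells, averaged 14055 ± 488 units in S273A cells, 13958 ± 278 with rosiglitazone, 14950.5 ± 279 with MRL24 and 13218 ± 1402 in WT cells (mean ± SD, n = 3 each). Its WT replicate 2 read 11599 units and the other WT arrays 14061 and 13995. Hk1, the widely expressed hexokinase, differed by between -0.06 and 0.05 on the log2 scale from WT in the 3 comparisons. A second Hk1 probe set gave 0.12 in S273A cells (adjusted p = 0.465 over probe sets), 0.29 with rosiglitazone (0.0609) and 0.37 with MRL24 (0.0241). Its WT replicate 2 was again the lowest array, and without it the differences were -0.03 in S273A cells, 0.14 with rosiglitazone and 0.215 with MRL24 (adjusted p = 0.0407 for MRL24).

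Among the genes of the preparatory steps, which turn glucose 6-phosphate into triose phosphates, Pfkp was the single call. It encodes the platelet form of phosphofructokinase, which commits sugar to glycolysis. The arrays read 4753, 4616 and 4426 units in S273A cells, 5325, 5536 and 5408 with rosiglitazone, 5658, 5758 and 5892 with MRL24 and 5600, 4759.6 and 5293 in WT cells. The highest S273A array was just below the lowest WT array, WT replicate 2. Pfkp in S273A cells was 0.883 times the WT level (log2 change -0.18 ± 0.05 SE, adjusted p = 0.0448). The call was lost without any 1 array other than WT replicate 2 (adjusted p 0.0508 to 0.161), and the second Pfkp probe set gave a log2 difference of 0.03 (adjusted p = 0.92 over probe sets). That second probe set was higher with MRL24 than in WT cells, by 0.50 (adjusted p = 0.0102), where the first gave 0.15 (adjusted p = 0.0931). Its WT replicate 2 read 1777 units, below the other WT arrays at 2563 and 2511, and without it the difference was 0.33 (adjusted p = 0.0104).

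The other 5 tested genes of these steps (Pfkl, Pfkm, Pfkfb3, Aldoa and Tpi1) differed from WT by -0.055 to 0.12 in S273A cells, 0.04 to 0.16 with rosiglitazone and -0.01 to 0.12 with MRL24, on the log2 scale. Pfkfb3, which makes the activator of phosphofructokinase, had the largest of the rosiglitazone values. It averaged 1212 ± 29 units with rosiglitazone, 1072 ± 25.9 with MRL24 and 1082 ± 37.3 in WT cells, and passed neither test (log2 change 0.16 ± 0.06 SE, adjusted p = 0.0917 against WT; log2 change 0.17 ± 0.06 SE, adjusted p = 0.127 against MRL24). All 3 of its rosiglitazone arrays lay above those of both groups.

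The payoff steps, which recover ATP from triose phosphates, held 1 call. Eno2 encodes an enolase isoform best known from neurons. It read 1406, 1416 and 1366 units in S273A cells, 1142, 1232 and 1191 with rosiglitazone, 1351, 1402 and 1396 with MRL24 and 1308, 1132 and 1182 in WT cells. The S273A and MRL24 arrays lay above all WT and all rosiglitazone arrays. The 5 neural markers summed to 1012 to 1160 units in S273A cells, 1037 to 1127 with rosiglitazone, 1046 to 1128 with MRL24 and 962 to 991 in WT cells, with Tubb3 and Snap25 below the filter. Of the 3 neural markers tested, 0 were called in any of the 4 comparisons. Eno2 was called higher in S273A cells (log2 change 0.21 ± 0.06 SE, adjusted p = 0.0398), a call lost without any 1 of 9 arrays (adjusted p 0.0545 to 0.119) and kept without rosiglitazone replicate 1, rosiglitazone replicate 2 or WT replicate 1. That call was also lost with the 6 S273A and WT arrays alone (adjusted p = 0.161) and with array weights (0.0861), and in 12 of the 23 alternatives in all. The MRL24 difference of Eno2 from WT was of like size and missed the threshold (log2 change 0.20 ± 0.06 SE, adjusted p = 0.0599), as did rosiglitazone against MRL24 (log2 change -0.22 ± 0.06 SE, adjusted p = 0.0639). Without WT replicate 1 both of these passed (adjusted p = 0.0195 against WT and 0.0399 between the ligands), and without WT replicate 2 the second did (adjusted p = 0.024). The second also passed with the 6 ligand arrays alone (adjusted p = 0.0233) and with array weights (0.0138). In all, the first passed in 4 of the 23 alternatives and the second in 6.

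Pgk1, Pgam1, Pkm and the lactate dehydrogenases Ldha and Ldhb passed no test. Ldha, which makes lactate from pyruvate, read 23507, 25074 and 24269 units in S273A cells, 24079, 26110.4 and 24149 with rosiglitazone, 23382, 23657 and 24559 with MRL24 and 23731, 21551 and 23096 in WT cells. Its lowest array was WT replicate 2. WT replicate 1 lay within the S273A and the MRL24 range, and WT replicate 3 below both. Over the 15 tested genes of glycolysis and lactate the median log2 change was 0.04 in S273A cells, 0.08 with rosiglitazone and 0.07 with MRL24, each against WT, where the medians over all genes were -0.005, -0.003 and 0.009. Without WT replicate 2 these medians were -0.009, 0.01 and 0.03, so the S273A median changed sign. With all arrays, 10 of 15 genes lay above 0 in S273A cells, 12 with rosiglitazone and 14 with MRL24, against 48.4%, 49.2% and 52.6% of all genes. These counts include WT replicate 2, the lowest array for each of the 7 members above 10000 units, all of which are among the 15. Without it the S273A median was below 0, so most of the 15 were then not above 0 in S273A cells.

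**Figure D2:**
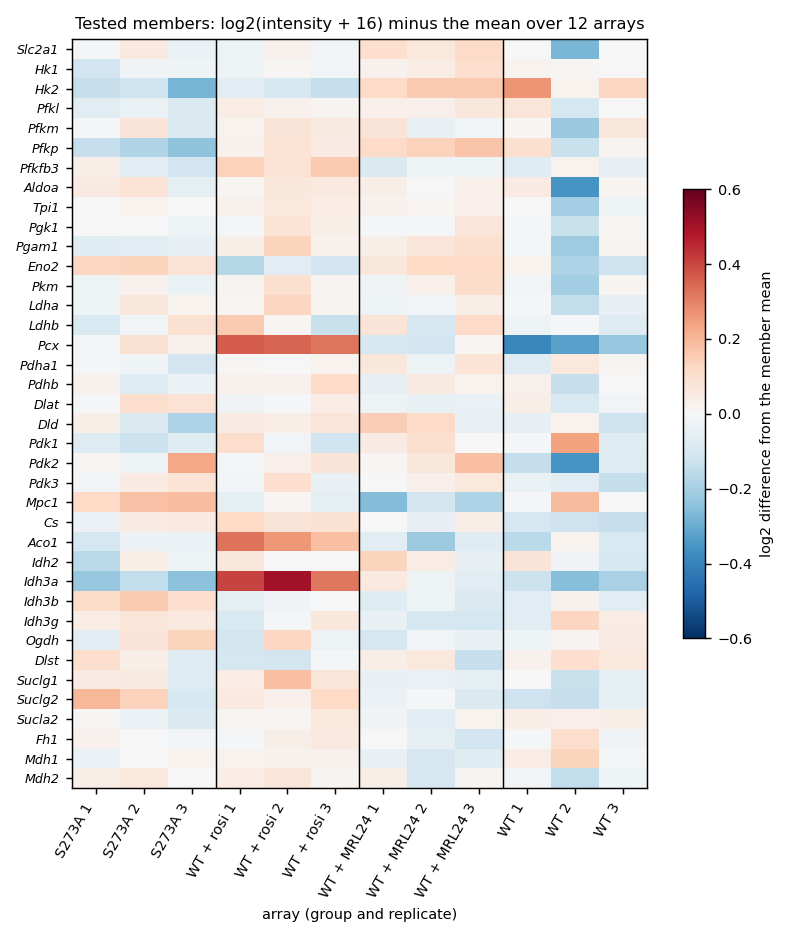
Each row is 1 of the 38 tested members and each column 1 array, by group and replicate, and colour gives log2(intensity + 16) minus that member's mean over the 12 arrays. Pcx and Idh3a stand out in the WT + rosiglitazone columns, Hk2 is low in the S273A and WT + rosiglitazone columns, and the column of WT replicate 2 is blue for 17 members that were lowest there.

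Pcx encodes pyruvate carboxylase, the mitochondrial enzyme that makes oxaloacetate from pyruvate and is abundant in fat cells. It was the only member called in each of the 4 comparisons. The arrays read 729.6, 785 and 749 units in S273A cells. They read 949.9, 942 and 923 with rosiglitazone and 686, 676 and 740.4 with MRL24. WT arrays read 556, 584 and 625. Every S273A, rosiglitazone and MRL24 array lay above every WT array, and every rosiglitazone array above all others.

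Pcx rose in S273A cells to 1.28 times the WT level (log2 change 0.35 ± 0.06 SE, adjusted p = 0.00286) and with rosiglitazone to 1.58 times (log2 change 0.66 ± 0.06 SE, adjusted p = 6.77e-06). With MRL24 it was 1.19 times the WT level (log2 change 0.25 ± 0.06 SE, adjusted p = 0.0353). Rosiglitazone exceeded MRL24 by a fold of 1.33 (log2 change 0.41 ± 0.06 SE, adjusted p = 0.0014). The S273A, rosiglitazone and ligand-against-ligand calls held under each of the 23 alternatives, whereas the MRL24 call was lost in 9 of 23. Among these were leaving out any 1 MRL24 array (adjusted p 0.0733 to 0.15), WT replicate 1 (0.0703) or WT replicate 2 (0.0927). The 3 comparisons with WT share those arrays.

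The array also carries 4 control probe sets along the Pcx transcript, and they did not give 1 size of change. For S273A against WT the log2 changes were 0.17 at the 3′ end, 0.14 at the 5′ end, and 0.18 and 0.41 at the middle positions, of which the last passed (adjusted p = 0.0107 over probe sets). For rosiglitazone against WT they were 0.41 (adjusted p = 0.00546) at the 3′ end, 0.21 (0.088) at the 5′ end, and 0.19 (0.172) and 0.91 (8.57e-06) in the middle. For MRL24 against WT they were 0.08 (adjusted p = 0.577), 0.33 (0.0151), 0.295 (0.0428) and 0.59 (0.00226) in the same order. All 12 of these values were above 0. At the 5′ end WT replicate 2 read 996.2 units, below the other WT arrays at 1253.8 and 1236. At the first middle position it read 1335.6 units, below 1584.9 and 1744.3, while at the 3′ end it was the highest WT array. The control probe set differences without WT replicate 2 are not given here, so the sizes at the 5′ end and first middle position may rest on that array. For rosiglitazone against MRL24 they were 0.33 and 0.32 at the 3′ end and 1 middle position but -0.12 and -0.10 at the 5′ end and the other, and none passed (adjusted p 0.0519 to 0.628). The estimates between the ligands therefore differed in sign along the transcript, although no control probe set told the ligands apart.

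Pcx and Hk2 are the 2 members with calls that held under each alternative in S273A cells, so the sequence before their start sites is shown. RefSeq (GRCm38.p6) gives 2 start sites of Pcx on the plus strand of chromosome 19 and 1 of Hk2 on the minus strand of chromosome 6. The 250 bases before each start are printed 5′ to 3′ on the gene's strand. Capitals mark ACGTG, 1 form of the core that hypoxia-inducible factors bind, read on either strand.
Pcx, chr19:4510222-4510471, plus strand: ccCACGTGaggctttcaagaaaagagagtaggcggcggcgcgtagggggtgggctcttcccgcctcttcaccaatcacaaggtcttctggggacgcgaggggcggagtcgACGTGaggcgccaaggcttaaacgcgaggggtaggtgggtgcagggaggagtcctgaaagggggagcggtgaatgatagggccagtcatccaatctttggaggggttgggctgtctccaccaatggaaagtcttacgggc
Pcx, chr19:4594069-4594318, plus strand: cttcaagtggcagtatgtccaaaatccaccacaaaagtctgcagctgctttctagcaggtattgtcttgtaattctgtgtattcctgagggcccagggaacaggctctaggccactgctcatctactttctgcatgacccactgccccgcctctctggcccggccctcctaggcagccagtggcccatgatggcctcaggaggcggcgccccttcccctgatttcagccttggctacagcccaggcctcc
Hk2, chr6:82774455-82774704, minus strand: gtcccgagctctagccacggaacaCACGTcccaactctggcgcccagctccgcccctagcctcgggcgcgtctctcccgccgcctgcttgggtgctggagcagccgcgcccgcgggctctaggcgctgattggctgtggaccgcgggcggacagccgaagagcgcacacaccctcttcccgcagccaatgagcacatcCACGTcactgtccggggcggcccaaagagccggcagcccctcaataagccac
The first Pcx stretch holds 3 matches, 2 of which are 1 site, CACGTG, read on both strands, and the other Pcx stretch has 0. The Hk2 stretch holds 2.

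Motifs were counted on both strands in RefSeq windows from 250 bases before to 50 after each start, which 42 of the 44 members have. ACGTG was found in 18 of the 42 (42.9%), where 21.8% of 27025 genes had it. By windows, of which a gene can have several, it was in 26 of 63 (41.3%) of the members against 19.6% of all. The glycolysis genes with it were Slc2a1, Hk1, Hk2, Pfkm, Pfkfb3, Aldoa, Aldoc, Pgk1, Pgam1, Pkm and Ldha. Those of pyruvate use were Pcx, Pdhb, Pdk2 and Pdk3, and those grouped with the TCA cycle were Idh3g, Ogdh and the cytosolic Mdh1. Of the other called members, Idh3b, Cs, Eno2, Pfkp, Aco1 and Mpc1 had none, and Pdp1 and Idh3a had no matched window. AGGTCA, the single site of many nuclear receptors, was in 12 genes (28.6%) against 18.1% of all genes, but by windows in 20.6% against 16.3%. The direct repeat of AGGTCA with 1 base between the copies, which PPARγ binds with its partner RXR and which contains AGGTCA, was in 0 of 42 and in 0.0481% of genes. A match describes letters in this window and no more, and no match says nothing of sites elsewhere.

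**Figure D3:**
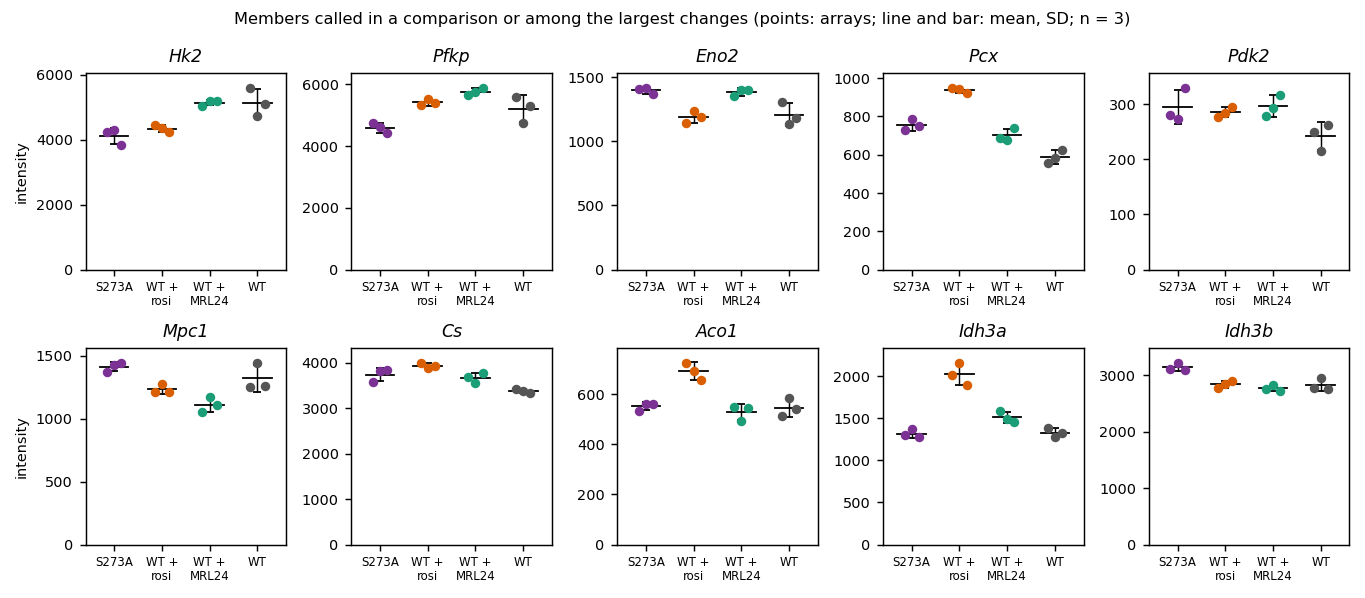
Intensity on a linear axis from 0 for the 10 members that were called or had one of the largest changes, with 1 point per array and the mean and SD of 3 arrays as line and bar. Pcx, Aco1 and Idh3a are highest in WT + rosiglitazone cells, and Hk2 is lower in S273A and WT + rosiglitazone than in WT + MRL24 and WT cells.

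Mpc1 forms, with Mpc2, the carrier that brings pyruvate into mitochondria. It read 1373, 1427 and 1437 units in S273A cells, 1211, 1273 and 1214 with rosiglitazone, 1053, 1169 and 1107 with MRL24 and 1254, 1443 and 1259 in WT cells. The MRL24 arrays were the lowest of all, and the highest array was WT replicate 2. Mpc1 with MRL24 was 0.844 times the WT level (log2 change -0.24 ± 0.06 SE, adjusted p = 0.0353). That call was lost without WT replicate 2 (adjusted p = 0.134) or any 1 MRL24 array (0.0604 to 0.117). The rosiglitazone difference from WT was -0.09 (adjusted p = 0.399) and that in S273A cells 0.10 (adjusted p = 0.384).

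The pyruvate dehydrogenase complex, which makes acetyl-CoA from pyruvate, held no call. Its 4 tested genes (Pdha1, Pdhb, Dlat and Dld) had log2 changes of -0.05 to 0.08 in S273A cells, 0.007 to 0.11 with rosiglitazone and -0.015 to 0.13 with MRL24. A second Pdha1 probe set gave more, with log2 differences of 0.22 with rosiglitazone (adjusted p = 0.122 over probe sets) and 0.27 with MRL24 (0.0602), and 0.11 and 0.16 without WT replicate 2. Pdk1, Pdk2 and Pdk3, kinases that switch the complex off, also passed no test. A further kinase outside the member list, Pdk4, was called in 3 comparisons and is described with the neighbouring genes. Of the 3 member kinases Pdk2 had the largest differences from WT. It read 280.2, 272.9 and 329 units in S273A cells, 277, 284 and 294 with rosiglitazone, 279, 293 and 317 with MRL24 and 249.9, 214 and 263 in WT cells. All arrays of the first 3 groups lay above the WT arrays, the lowest of which was again replicate 2. The log2 changes from WT were 0.26 (adjusted p = 0.135) in S273A cells, 0.23 (adjusted p = 0.185) with rosiglitazone and 0.28 (adjusted p = 0.106) with MRL24.

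Of the 5 rosiglitazone calls, 3 were for enzymes that make or use citrate and isocitrate. Cs encodes citrate synthase, which joins acetyl-CoA with the oxaloacetate that pyruvate carboxylase can supply. The arrays read 3588, 3812 and 3835 units in S273A cells, 4004, 3887 and 3924 with rosiglitazone, 3679.6, 3561 and 3786 with MRL24 and 3427, 3380 and 3346 in WT cells. WT arrays were the lowest 3 and rosiglitazone arrays the highest 3. Cs rose with rosiglitazone to 1.16 times the WT level (log2 change 0.22 ± 0.04 SE, adjusted p = 0.00371) and kept the call under each alternative. In S273A cells it was 1.11 times the WT level (log2 change 0.145 ± 0.04 SE, adjusted p = 0.0453), a call lost without any 1 array other than S273A replicate 1 (adjusted p 0.0563 to 0.146). The MRL24 difference from WT was 0.12 (adjusted p = 0.0972). The other Cs probe sets gave 0.09 and 0.49 for rosiglitazone, 0.06 and 0.32 for S273A, and -0.14 and 0.35 for MRL24, so the probe sets disagreed on size and, for MRL24, on direction.

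Aco1 encodes the cytosolic aconitase, which without its iron-sulfur cluster is the iron regulatory protein IRP1. It read 534, 562 and 559.6 units in S273A cells, 725, 693 and 655 with rosiglitazone, 548, 493 and 546 with MRL24 and 512, 584 and 539.6 in WT cells. The 3 rosiglitazone arrays lay above all the others. Aco1 rose with rosiglitazone to 1.26 times the WT level (log2 change 0.33 ± 0.07 SE, adjusted p = 0.00812). It was also 1.3 times the MRL24 level (log2 change 0.38 ± 0.07 SE, adjusted p = 0.00849), a call lost without MRL24 replicate 2 (adjusted p = 0.0654) and with the mean of its probe sets (0.0587). The second Aco1 probe set gave 0.34 against WT (adjusted p = 0.0511 over probe sets) and 0.18 against MRL24 (0.466).

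Isocitrate dehydrogenase 3, which makes 2-oxoglutarate and NADH in mitochondria, is built of alpha, beta and gamma subunits, of which alpha was called with rosiglitazone and beta in S273A cells. The catalytic alpha subunit, Idh3a, read 1298, 1372 and 1278 units in S273A cells, 2019, 2162 and 1896 with rosiglitazone, 1586, 1490.2 and 1455 with MRL24 and 1389.5, 1273 and 1328 in WT cells. Rosiglitazone arrays were the highest 3 and MRL24 arrays the next, while S273A and WT arrays overlapped. Idh3a rose with rosiglitazone to 1.52 times the WT level (log2 change 0.60 ± 0.06 SE, adjusted p = 1.08e-05) and to 1.34 times the MRL24 level (log2 change 0.42 ± 0.06 SE, adjusted p = 0.00082). Both calls held under each alternative. The MRL24 difference from WT was 0.18 (adjusted p = 0.0811), and the S273A difference was -0.015 (95% interval -0.14 to 0.11). The 2 dimmer Idh3a probe sets gave 0.17 (adjusted p = 0.609 over probe sets) and 0.44 (0.0709) for rosiglitazone against WT. Against MRL24 they gave 0.345 (0.389) and 0.475 (0.113). For MRL24 against WT they gave -0.17 (0.577) and -0.03 (0.918), so the probe sets differed in direction there.

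Idh3b, the beta subunit, read 3116, 3219 and 3097 units in S273A cells, 2769.6, 2847 and 2896 with rosiglitazone, 2746, 2828 and 2722 with MRL24 and 2765, 2943 and 2756 in WT cells. The S273A arrays were above all others. It was called higher in S273A cells (log2 change 0.16 ± 0.04 SE, adjusted p = 0.0399), and the call was lost without any 1 array other than WT replicate 2 (adjusted p 0.0507 to 0.136). Its second probe set gave 0.18 (adjusted p = 0.0813 over probe sets), and 0.22 (0.0311) without WT replicate 2. With rosiglitazone Idh3b differed from WT by 0.01 (95% interval -0.08 to 0.10). Idh3g, the gamma subunit, passed no test, with log2 changes of 0.02 (adjusted p = 0.869), -0.05 (adjusted p = 0.658) and -0.12 (adjusted p = 0.169) in S273A, rosiglitazone and MRL24 cells. Idh2, the mitochondrial enzyme that makes NADPH, differed from WT by -0.03 to 0.06.

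The later steps of the cycle held no call. Ogdh and Dlst, of the oxoglutarate dehydrogenase complex, differed from WT by -0.14 to 0.035 over the 3 comparisons. Suclg1, Suclg2 and Sucla2, subunits of the succinyl-CoA ligases, differed by -0.07 to 0.185, and Fh1, Mdh1 and Mdh2 by -0.13 to 0.11. The largest of these values belonged to Suclg2, at 0.185 (adjusted p = 0.122) in S273A cells and 0.175 (adjusted p = 0.132) with rosiglitazone. The 14 genes grouped here with the TCA cycle include Aco1 and Mdh1, which are cytosolic enzymes. Over the 14 the median log2 change was 0.02 in S273A cells, 0.02 with rosiglitazone and -0.035 with MRL24, each against WT. In rosiglitazone against MRL24 the median was 0.08 and 12 of 14 genes lay above 0, where the median of all genes was -0.02 and 44.2% lay above 0. For the 15 genes of glycolysis and lactate the same comparison gave a median of -0.003 with 7 above 0, or 0.015 with arrays scaled to a common median.

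**Figure D4:**
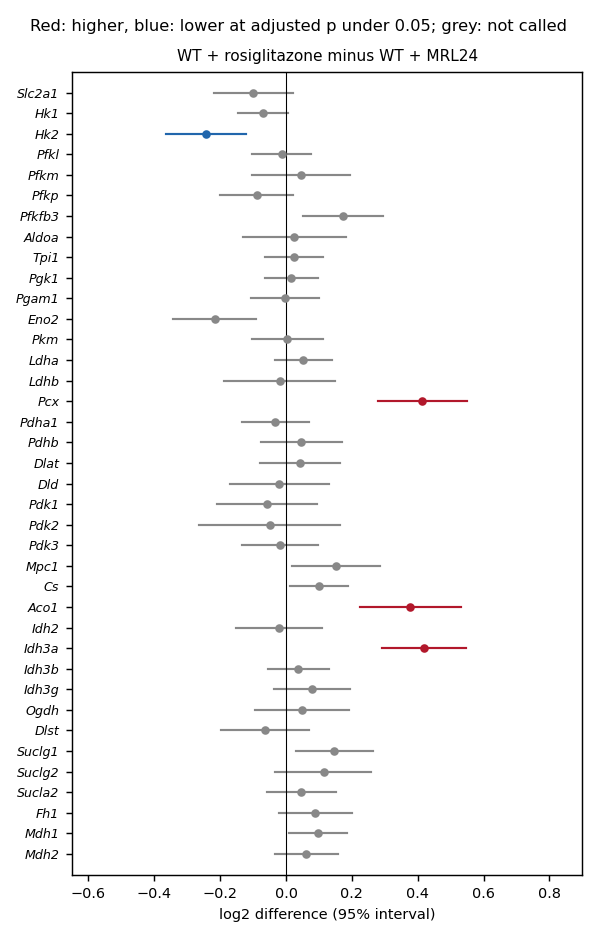
Log2 difference of WT + rosiglitazone minus WT + MRL24 (x axis, on log2(intensity + 16)) with 95% intervals for the 38 tested members in pathway order. Pcx, Aco1 and Idh3a are called higher and Hk2 lower. Of the 14 genes grouped with the TCA cycle, from Cs down, 12 lie right of 0.

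Other genes of the pathway and its neighbours were taken from a list of 57, of which 42 were on the array and 38 passed the filter. In S273A cells 2 were called higher and 2 lower. With rosiglitazone 3 were higher and 1 lower than in WT cells, with MRL24 3 were higher and 0 lower, and between rosiglitazone and MRL24 1 was higher. These shares of 10.5%, 10.5%, 7.89% and 2.63% lay near those over all genes (7.78%, 8.52%, 5.86% and 2.66%). The monocarboxylate transporter Slc16a3, which exports lactate, read 2505, 2543 and 2330.2 units in S273A cells, 3524, 3484 and 3522 with rosiglitazone, 3474, 3572 and 3509 with MRL24 and 3669, 3425 and 3458 in WT cells. It fell in S273A cells to 0.7 times the WT level (log2 change -0.51 ± 0.045 SE, adjusted p = 4.74e-06), a call kept under each alternative, and the 2 ligand groups overlapped WT.

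Pdk4, a kinase that inhibits the pyruvate dehydrogenase complex and a known PPAR target, was called lower in S273A and higher in rosiglitazone cells against the same WT arrays. It read 1113, 1088 and 1117 units in S273A cells, 2889, 2688 and 2858 with rosiglitazone, 1673, 1799.5 and 1618 with MRL24 and 1394, 1638 and 1374 in WT cells. The S273A arrays were all below WT and the rosiglitazone arrays all above. Pdk4 fell in S273A cells (log2 change -0.40 ± 0.07 SE, adjusted p = 0.00144) and rose with rosiglitazone to 1.91 times the WT level (log2 change 0.93 ± 0.07 SE, adjusted p = 2.04e-07). Rosiglitazone was 1.65 times MRL24 (log2 change 0.72 ± 0.07 SE, adjusted p = 7.33e-06). These 3 calls held under each alternative. The MRL24 difference from WT was 0.21 (adjusted p = 0.0681) and passed without WT replicate 2 (adjusted p = 0.02).

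Acly encodes ATP citrate lyase, which splits exported citrate into cytosolic acetyl-CoA for fatty acid synthesis. It read 3693, 4302 and 3993 units in S273A cells, 6059, 6214 and 5996 with rosiglitazone, 5281, 5132 and 5227 with MRL24 and 4349.6, 3568 and 4054 in WT cells. It rose with rosiglitazone (log2 change 0.61 ± 0.06 SE, adjusted p = 1.30e-05). MRL24 also raised it above WT (log2 change 0.39 ± 0.06 SE, adjusted p = 0.00682), and S273A differed by 0.004 (95% interval -0.13 to 0.14). The MRL24 call was lost with the mean of its probe sets, those below the intensity filter included (adjusted p = 0.0974). Rosiglitazone was above MRL24 on every array, with a difference that missed the threshold (log2 change 0.22 ± 0.06 SE, adjusted p = 0.0779). It passed in 5 of the 23 alternatives. These were without WT replicate 1 (adjusted p = 0.047) or WT replicate 2 (0.012) and with a common median (0.0464). The others were the 6 ligand arrays alone (0.00115) and array weights (0.00835).

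Taldo1, transaldolase of the pentose phosphate pathway, averaged 1234 ± 59.4 units in S273A cells, 1169 ± 58.8 with rosiglitazone, 1022 ± 19.8 with MRL24 and 1022 ± 18 in WT cells. It was called higher in S273A cells (log2 change 0.27 ± 0.06 SE, adjusted p = 0.00843), a call lost with the 6 S273A and WT arrays alone (adjusted p = 0.0604). With rosiglitazone Taldo1 was also called higher (log2 change 0.19 ± 0.06 SE, adjusted p = 0.0482), and that call was lost without any 1 array other than S273A replicate 2 (adjusted p 0.0503 to 0.176). Sdhd, a membrane anchor of succinate dehydrogenase, was called higher in S273A cells (log2 change 0.25 ± 0.07 SE, adjusted p = 0.0374). That call was lost without S273A replicate 1 or 2, rosiglitazone replicate 3, MRL24 replicate 1 or 2, or WT replicate 1 or 3 (adjusted p 0.0505 to 0.15). Gpd2, the mitochondrial glycerol 3-phosphate dehydrogenase, was called lower with rosiglitazone (log2 change -0.21 ± 0.055 SE, adjusted p = 0.0245), and the call was lost without any 1 rosiglitazone array, WT replicate 1 or WT replicate 2 (adjusted p 0.0542 to 0.0795).

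The insulin-responsive glucose transporter Slc2a4 (GLUT4) averaged 231 ± 7.8 units in S273A cells, 227 ± 34 with rosiglitazone, 268 ± 49.1 with MRL24 and 184 ± 27.1 in WT cells. It was called higher with MRL24 (log2 change 0.50 ± 0.14 SE, adjusted p = 0.0464), a call lost in 16 of the 22 alternatives that kept the gene, among them leaving out any 1 MRL24 array, WT replicate 1 or 2, any 1 S273A array or rosiglitazone replicate 2 (adjusted p 0.0517 to 0.182). Rpe, an epimerase of the pentose phosphate pathway, was called higher with MRL24 by its brighter probe set (log2 change 0.31 ± 0.08 SE, adjusted p = 0.0347), where the other above the intensity filter gave -0.03. Its call was lost without any 1 MRL24 array or WT replicate 2 (adjusted p 0.0652 to 0.135).

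**Figure D5:**
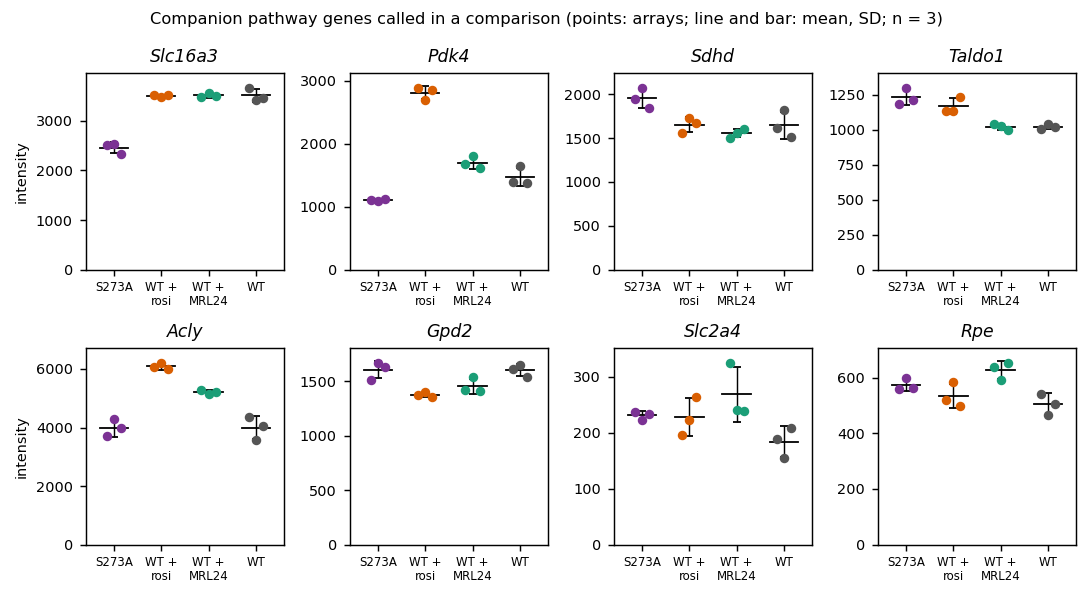
Intensity on a linear axis from 0 for the 8 neighbouring pathway genes that were called, with 1 point per array and the mean and SD of 3 arrays as line and bar. Slc16a3 and Pdk4 are lowest in S273A cells, and Pdk4 and Acly are highest in WT + rosiglitazone cells.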

How the data were processed

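Biotin-labelled RNA of 12 samples was measured on Affymetrix arrays. The authors deposited intensity values on a linear scale, and the sources used here do not give their normalization. The table holds 22690 probe sets. Of these 20380 name 1 gene, 691 name several, 1555 are not named here and 64 are controls. The brightest probe set stood for each of 12393 genes, controls left out. Genes under the 30th percentile of mean intensity (132.25) were dropped. Values were used as log2(intensity + 16), so folds of dim genes are understated, and folds in the text come from this scale.

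All 12 arrays entered 1 limma 3.58.1 fit in R 4.3.3 (lmFit, contrasts, eBayes with trend), with 8 residual and 7.56 prior degrees of freedom. The residual SD had a median of 0.0969 on the log2 scale. A call needed an adjusted p under 0.05 (Benjamini-Hochberg over 8675 genes). Single probe sets were fitted and adjusted over all named probe sets above the same intensity, with the controls for GAPDH and pyruvate carboxylase. The procedure was tested on simulated data for rosiglitazone against WT, with 50 genes changed at each size. It called 30% of genes with a simulated log2 change of 0.25, 76% at 0.5 and 98% at 1. Changes as small as 0.25 were thus mostly missed there, and a gene without a call may still differ. Replicate numbers did not pair the samples (mean residual correlations -0.018, 0.003 and -0.011). Members called, the 3 largest changes per comparison and called genes of the neighbouring list were described singly. The members and lists were chosen with earlier results of these data known. Alternatives covered pseudocount, filter, scaling, probe sets, 6 arrays only, array weights, a replicate block and each array left out. The filter over probe sets, the Pcx control probe sets and the members' further probe sets without WT replicate 2 were added after seeing the data. Figures used python 3.11.15 with pandas 2.3.3, numpy 2.4.6 and matplotlib 3.10.9.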

Additional observations from a re-analysis of the deposited data

How the results depend on the processing

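None of the 72 log2 changes of the genes described singly turned to the opposite direction with a call under the 23 alternatives run on all genes. With the array's control probe sets in place of its own, an alternative added after seeing the data, Pcx between rosiglitazone and MRL24 turned to -0.12 at the 5′ end and -0.10 at 1 middle position. Neither of these differences was called. Of the 29 called changes, 13 kept their call under each of the 23 alternatives run on all genes. Over the 1648 repeats of these alternatives, which leave out the control probe sets, a call was lost in 143 and gained in 21. The members called in S273A against WT were 6, but 2 with the 6 arrays of both groups alone, 2 with a replicate block and 2 to 4 without single arrays. In rosiglitazone against WT they were 5, and 4 to 6 without single arrays. In MRL24 against WT they were 2, but 0 with no filter, 5 with the mean of all probe sets, 0 with the 6 arrays alone, 1 with array weights, 1 with the replicate block and 0 to 5 without single arrays. In rosiglitazone against MRL24 they were 4, but 6 with the 6 arrays alone, 6 with array weights and 2 to 5 without single arrays. All genes called were 675 in S273A, 739 in rosiglitazone and 508 in MRL24 cells against WT, and 231 between the ligands. With the 6 arrays alone these counts were 243, 372, 50 and 557. Without single arrays they were 396 to 649, 392 to 787, 70 to 838 and 99 to 494. With no filter MRL24 gave 226, and with array weights the ligands gave 673. Quantile normalization gave 277 higher and 420 lower genes in S273A cells, scaling to a common median 227 higher and 443 lower in MRL24 cells and 151 higher and 72 lower between the ligands. Because the replicate numbers did not pair the samples, the replicate block is given here only: it called 2, 5, 1 and 4 members and 547, 628, 355 and 177 genes in the 4 comparisons. The causes of these shifts were not tested. The 6 arrays alone leave fewer arrays to estimate the spread. High intensity may limit what changes in Pgk1, Ldha and the other abundant glycolytic genes can show, which was not tested.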
